A study of Rattus norvegicus with 4 samples.

Results

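The smooth muscle contractile markers Tagln, Cnn1, Myh11, Smtn, Mylk, Lmod1, Synpo2 and Mcam were examined in cultured neonatal rat ventricular myocytes, the beating cells of the newborn heart. The members were every probe set whose only gene symbol in the platform annotation was 1 of these 8 names. All 8 genes were on the array, with 11 probe sets out of 15866, and 8 probe sets of 7 genes were bright enough to be tested. In the fibronectin group, cells had been plated on dishes coated with fibronectin, a matrix glycoprotein bound by integrins. In the control group the dishes were uncoated. Both groups had 10% serum for 24 h and then 48 h without serum, and each was measured on 2 arrays of total RNA. The labels name no separate cultures or litters, so the p-values measure the spread among these arrays alone, and that spread can be technical. A primary myocyte culture is a model whose purity the labels do not state.

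Smooth muscle cells contract when calcium and calmodulin activate myosin light chain kinase, which phosphorylates the light chains of smooth muscle myosin so that it can pull on actin. Actin-binding proteins such as transgelin, calponin and smoothelin decorate the thin filaments, and leiomodin promotes their assembly. Many genes of this programme are controlled by serum response factor with myocardin-related cofactors, which bind a DNA element called the CArG box. The programme marks vascular smooth muscle in the adult, but the embryonic heart, pericytes and activated fibroblasts also use parts of it.

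The regulatory sequence is shown for Cnn1, the member gene with the largest positive difference (chosen after its values were seen), and for Mylk, which encodes the kinase that switches the motor on. The RefSeq promoter table of build GRCr8 held 4 of the 8 genes, Cnn1, Smtn, Mylk and Synpo2, and each sequence gives the 250 bases before the start site, 5′ to 3′ on the gene's strand. Capitals mark CATTCC, the MCAT motif bound by TEAD factors, which was searched on both strands.
Cnn1, chr8:28908187-28908436, plus strand: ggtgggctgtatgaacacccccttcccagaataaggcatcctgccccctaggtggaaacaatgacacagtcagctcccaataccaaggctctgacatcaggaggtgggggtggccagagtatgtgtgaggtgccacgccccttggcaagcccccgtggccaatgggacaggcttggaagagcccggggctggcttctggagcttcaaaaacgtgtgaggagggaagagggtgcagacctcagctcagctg
Mylk, chr11:79498575-79498824, minus strand: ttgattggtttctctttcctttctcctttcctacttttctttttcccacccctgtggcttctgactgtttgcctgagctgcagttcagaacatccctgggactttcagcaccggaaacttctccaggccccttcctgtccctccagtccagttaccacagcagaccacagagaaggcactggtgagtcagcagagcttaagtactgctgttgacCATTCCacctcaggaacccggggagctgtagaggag
The Mylk window lies inside the annotated gene and so belongs to an internal start site. Its motif spans bases 36 to 31 before that site on the gene's own strand. MCAT letters occurred in 1 of the 4 windows and in 12.1% of all 33469 windows of the same length. A CArG box occurred in 0 of the 4 windows and in 1.50% of all windows, a statement about these letters in these bases only.

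Of the 8 tested probe sets, 4 had higher and 4 had lower mean signal on fibronectin, and 0 passed limma's test at a Benjamini-Hochberg adjusted p of 0.05. No probe set on the array passed either, so the background share was 0%. Cnn1 and the brighter Mcam probe set had signals above both controls on both fibronectin arrays, while Myh11, Mylk and the other Mcam probe set lay below both controls. Thus 2 of 8 lay above, against 19.3% of all tested probe sets, and 3 of 8 lay below, against 19%. On the deposited scale 2 of 8 lay below, against 12.5% of all, and with the arrays shifted to the same median 2 of 8, against 15.9%. For 3 of the 8, Cnn1 and both Mcam probe sets, the groups did not overlap and the log2 difference reached 1 in size. That held for 9.21% of all tested probe sets. The same 3 had an unadjusted limma p under 0.05, as did 616 probe sets, or 6.47%, in all. These criteria draw on the same signals. The Mcam probe sets went opposite ways, and the lower one passed the brightness filter through its controls. By the brightest tested probe set of each gene, 2 of 7 marker genes were under 0.05, against 5.68% of all genes. With 2 arrays in each group an exact two-sided permutation test cannot give a p below 0.333. Taking the brightest tested probe set of each gene, the median log2 difference was 0.02 over the 7 marker genes and 0.02 over all 7101 genes.

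**Figure D1:**
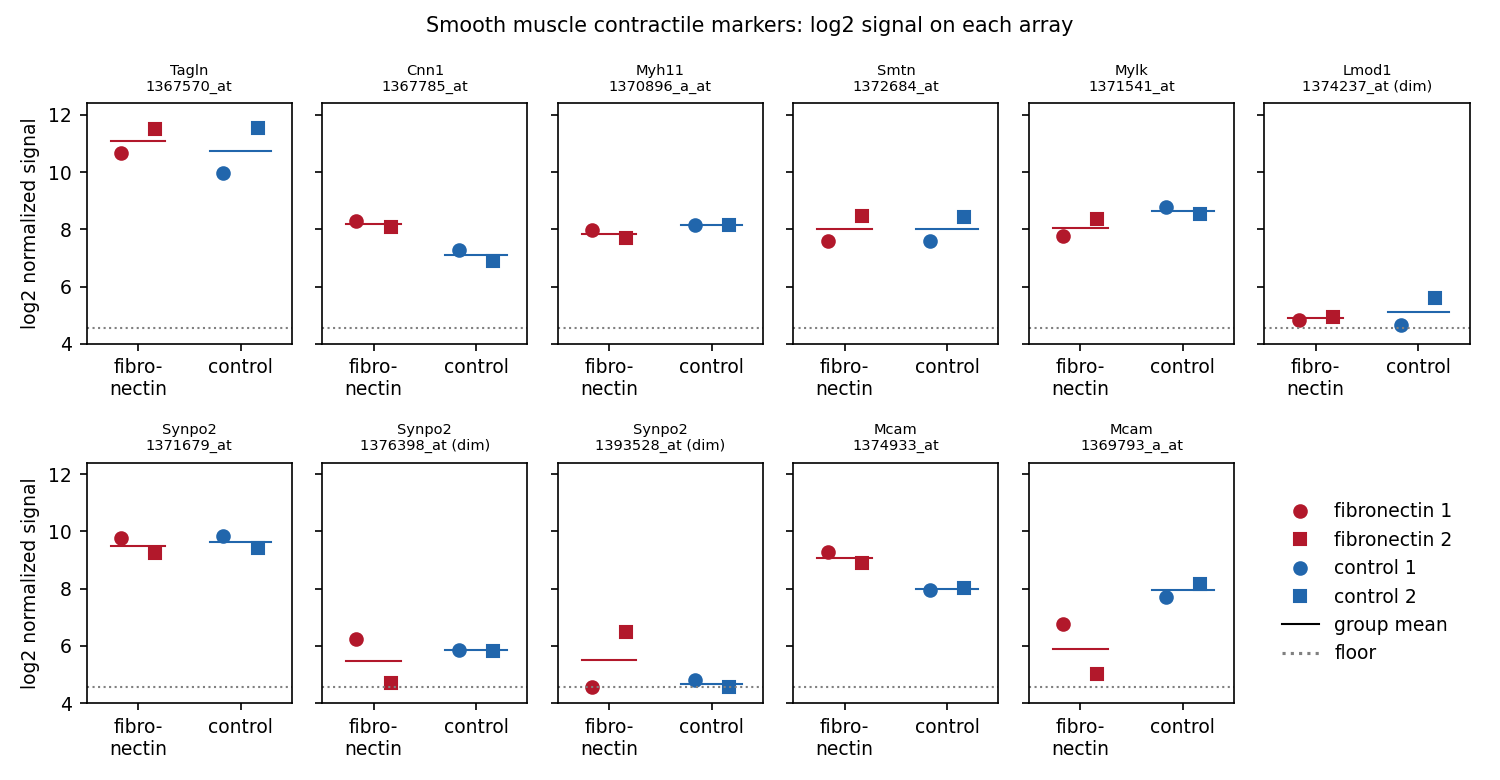
Log2 normalized signal (vertical axis) of all 11 probe sets on each of the 4 arrays, fibronectin left of control, with replicate 1 as circles, replicate 2 as squares, short lines for group means and a dotted line at the floor of 4.55. The groups separate for Cnn1, Myh11, Mylk and both Mcam probe sets. The Mcam probe sets go opposite ways, while Tagln and Smtn differ more between replicate numbers than between coatings.

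Of 3 control transcripts with a 3' to 5' signal ratio, the ratio separated the groups in 2, and 1 array stood apart from the rest. The Gapdh control transcript gave 3' to 5' signal ratios of 6.02 and 3.52 on fibronectin and 1.64 and 1.15 on control arrays, and beta-actin gave 13.0 and 6.29 on fibronectin against 1.46 and 1.40 on controls. Hexokinase gave 3.11 and 7.0 on fibronectin against 3.77 and 4.12 on controls, so its groups overlapped. The array that stood apart was fibronectin replicate 2, correlating across tested probe sets at 0.775 to 0.794 with the other arrays, whose own correlations ran from 0.847 to 0.910. Its deposited values came in steps of 1.95, against 0.223 on fibronectin replicate 1, 0.1 on control replicate 1 and 0.233 on control replicate 2. All 13 measured ventricular myocyte markers were bright enough to be tested, among them Myh6 and Myh7, the cardiac myosin heavy chains. The part of the 3' to 5' ratios and of that array's scale in the results below was not tested.

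Among the actin-binding proteins of the thin filament, Cnn1 separated the groups and Tagln and Smtn did not. Cnn1 encodes calponin 1, which binds actin and restrains the myosin ATPase. Its probe set 1367785_at had deposited intensities of 381.1 and 226.0 on fibronectin replicates 1 and 2, against 168.2 and 105.6 on control replicates 1 and 2. After normalization its log2 signals were 8.28 and 8.08 on fibronectin against 7.28 and 6.90 on control. Both fibronectin arrays were the brighter ones on either scale. The group means were 8.18 ± 0.14 on fibronectin and 7.09 ± 0.27 on control (SD, n = 2 each), a 2.13-fold higher value on fibronectin. The log2 difference was 1.09 (SE 0.39, 95% confidence interval 0.17 to 2.01), and limma's Benjamini-Hochberg adjusted p was 0.726. With any 1 array left out it stayed between 0.90 and 1.28, and on the deposited scale it was 1.14.

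Tagln encodes transgelin, an abundant actin-bundling protein of the smooth muscle cytoskeleton. Its probe set 1367570_at gave log2 signals of 10.66 and 11.50 on fibronectin, against 9.96 and 11.53 on control. Replicate 2 was the higher array in both groups, and control replicate 2 was the highest of the 4, so the groups overlapped. The means were 11.08 ± 0.59 on fibronectin and 10.74 ± 1.11 on control (SD, n = 2 each), and the log2 difference of 0.34 (SE 0.52) was smaller than the spread within either group. Its interval ran from -0.88 to 1.55, and limma's Benjamini-Hochberg adjusted p was 0.891. The sign depended on the arrays used: leaving out control replicate 1 gave -0.45 and leaving out fibronectin replicate 2 gave -0.08, but leaving out fibronectin replicate 1 gave 0.75 and leaving out control replicate 2 gave 1.12. On the deposited scale it was 0.60.

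Smtn encodes smoothelin, a marker of contractile rather than proliferating smooth muscle. Probe set 1372684_at measured 7.59 and 8.47 on fibronectin, against 7.59 and 8.42 on control. As for Tagln, the arrays paired by replicate number rather than by coating. The log2 difference was 0.02 (SE 0.47), with an interval from -1.07 to 1.11 and a Benjamini-Hochberg adjusted p of 0.993 in limma. It was -0.42 without fibronectin replicate 2 and -0.39 without control replicate 1.

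The motor and its kinase both had lower values on fibronectin, by less than 1 on the log2 scale. Myh11 encodes the smooth muscle myosin heavy chain, regarded as one of the more specific markers of mature smooth muscle. Its probe set 1370896_a_at measured 7.97 and 7.70 on fibronectin, against 8.14 and 8.16 on control. The gap between the higher fibronectin array and the lower control was smaller than the distance between the fibronectin arrays. The log2 difference was -0.31 (SE 0.36), with an interval from -1.15 to 0.53 and a Benjamini-Hochberg adjusted p of 0.844 in limma. It was -0.17 without fibronectin replicate 2. The deposited intensities, 302.5 and 177.3 on fibronectin against 306.1 and 245.7 on control, overlapped.

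Mylk encodes the myosin light chain kinase. Probe set 1371541_at measured 7.78 and 8.35 on fibronectin, against 8.77 and 8.52 on control. Both fibronectin arrays were below both controls, with fibronectin replicate 1 the lowest. Mean signal was 8.07 ± 0.41 on fibronectin and 8.64 ± 0.17 on control (SD, n = 2 each), 1.49-fold lower on fibronectin. On the log2 scale they differed by -0.58 (SE 0.37), the interval ran from -1.44 to 0.28, and limma's Benjamini-Hochberg adjusted p was 0.772. Without fibronectin replicate 1 the difference was -0.29. On the deposited scale the second array of each group read 268.9 on fibronectin and 311.6 on control, and the first read 262.5 on fibronectin and 475.7 on control, so the order held there too.

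The actin-organizing members did not separate the groups. Synpo2 encodes synaptopodin 2, also called myopodin, which binds actin and filamin at Z-discs and dense bodies and is made by both cardiac and smooth muscle. Its bright probe set 1371679_at measured 9.77 and 9.24 on fibronectin, against 9.83 and 9.41 on control. Here replicate 1 was the higher array in both groups, the reverse of Tagln and Smtn. The log2 difference was -0.11 (SE 0.33), with an interval from -0.89 to 0.67 and a Benjamini-Hochberg adjusted p of 0.946 in limma. It was 0.16 without fibronectin replicate 2 and 0.10 without control replicate 1.

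The remaining Synpo2 probe sets were left out as dim. Probe set 1376398_at measured 6.23 and 4.71 on fibronectin, against 5.85 and 5.83 on control. Probe set 1393528_at was at the floor on fibronectin replicate 1 and control replicate 2, and read 6.50 on fibronectin replicate 2 and 4.81 on control replicate 1. In both, the fibronectin arrays lay further apart than the controls. Lmod1 encodes leiomodin 1, which nucleates actin filaments in smooth muscle, and its only probe set, 1374237_at, was also dim, at 4.85 and 4.94 on fibronectin against 4.67 and 5.59 on control. No test was made on these dim probe sets.

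Mcam encodes the adhesion molecule CD146, found on smooth muscle, pericytes and endothelium, and its probe sets gave opposite answers. Probe set 1374933_at had deposited intensities of 790.6 and 383.9 on fibronectin, against 273.8 and 224.0 on control. Its log2 signals were 9.27 and 8.90 on fibronectin, against 7.97 and 8.02 on control. Both fibronectin arrays exceeded both controls, by more than the distance between the arrays of either group. The means were 9.08 ± 0.26 on fibronectin and 8.00 ± 0.04 on control (SD, n = 2 each), 2.12-fold higher on fibronectin. That is a log2 difference of 1.09 (SE 0.34, interval 0.30 to 1.87), with a Benjamini-Hochberg adjusted p of 0.718 in limma, and it ran from 0.90 to 1.27 with 1 array left out.

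Probe set 1369793_a_at, designed from another Mcam sequence, had deposited intensities of 119.5 and 25.3 on fibronectin, against 229.7 and 246.1 on control. Its log2 signals were 6.78 and 5.02 on fibronectin, against 7.72 and 8.16 on control. Both fibronectin arrays were below both controls, and fibronectin replicate 2 was close to the floor, so the size there is uncertain. The means were 5.90 ± 1.24 on fibronectin and 7.94 ± 0.31 on control (SD, n = 2 each), 4.11-fold lower on fibronectin. This was a log2 difference of -2.04 (SE 0.65, interval -3.56 to -0.52), with a Benjamini-Hochberg adjusted p of 0.718 in limma. This probe set passed the brightness filter through its control signals, and a stricter filter on the dimmest 60% left it out. Without fibronectin replicate 1 the difference was -2.92, which rests on fibronectin replicate 2, the array that stood apart. With the replicate number as a block the Benjamini-Hochberg adjusted p was 0.0441 in limma. In that fit 234 of 9519 probe sets passed, and the labels do not say that equal numbers share a culture. Without fibronectin replicate 2 the difference was -1.16. RefSeq lists 2 Mcam transcripts, and the suffix _a_at marks a probe set that Affymetrix matched to more than 1 transcript of a gene. No direction can be given for Mcam as a gene from these arrays.

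**Figure D2:**
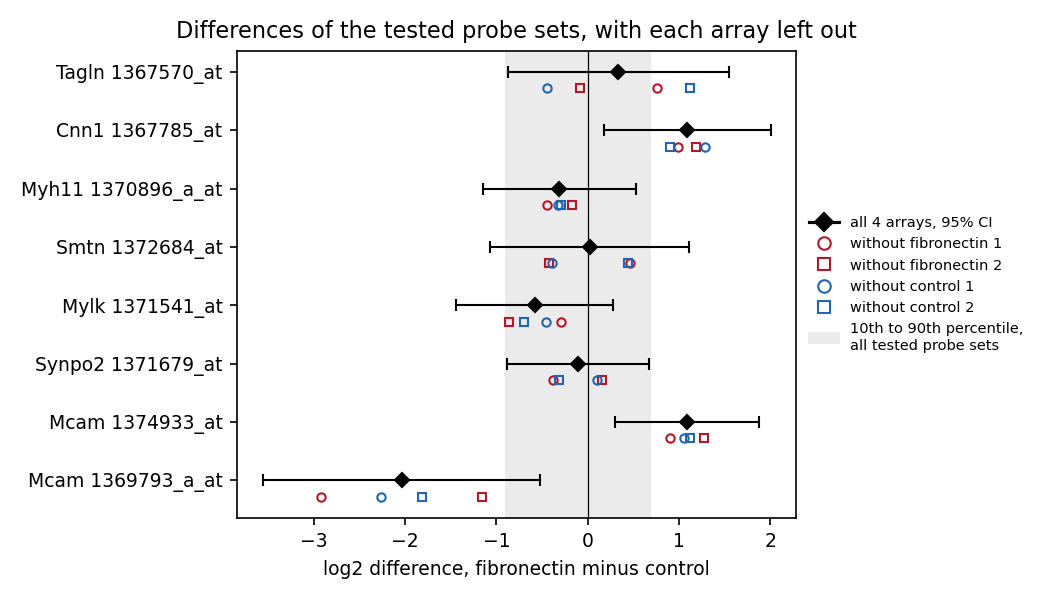
Log2 difference, fibronectin minus control (horizontal axis), of the 8 tested probe sets as diamonds with 95% confidence intervals, above open symbols for the same difference with each array left out, and a grey band from the 10th to the 90th percentile of all tested probe sets (-0.89 to 0.69). Cnn1, Myh11, Mylk and both Mcam probe sets keep their sign with any array left out, which their lack of overlap fixes in advance. The open symbols of Tagln, Smtn and Synpo2 fall on both sides of 0.

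Across the marker genes the arrays did not line up in a single order. Among the brightest tested probe sets, control replicate 2 was highest for Tagln and Myh11, control replicate 1 for Synpo2 and Mylk, fibronectin replicate 1 for Mcam and Cnn1, and fibronectin replicate 2 for Smtn. The range over the 4 arrays ran from 0.46 for Myh11 to 1.57 for Tagln, with a median of 0.99, next to a median of 0.99 over all tested probe sets. Likeness of pattern was measured from Tagln, whose probe set was the brightest member, as the root mean square difference of centred log2 signals over the 4 arrays. The closest of 8063 named probe sets of other genes, the 8 marker genes being left out, belonged to Tbc1d10b at 0.08, Megf6 at 0.09, Srpx2 at 0.09, Klf2 at 0.11 and Nt5dc2 at 0.12.

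Partners of the markers were counted from 5 lists, using the brightest tested probe set of each gene. Des, Rgs5, Vim and Pln stand in a partner list and in a cell type list. Of 63 partner genes on the array 53 were tested, and 23 of these had higher and 30 lower means on fibronectin. In either direction 0 passed limma's Benjamini-Hochberg threshold. An unadjusted limma p under 0.05 was found for 3, against 5.68% of all genes so represented. These 3 were Cnn2, Vcl and Gata6. Over the 53 tested partner genes the median log2 difference was -0.11. Both fibronectin arrays lay above both controls for 8 of the 53, against 20.6% of all genes so represented, and below them for 11, against 17.2%.

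On the thin filament, Acta2, the smooth muscle alpha-actin, measured 10.71 and 11.55 on fibronectin, against 10.93 and 12.32 on control, and the groups overlapped with a log2 difference of -0.49 (SE 0.48). Actg2, the enteric smooth muscle actin, differed by 0.47 (SE 0.60) with overlap. Tpm2, the beta-tropomyosin, measured 10.87 and 11.22 on fibronectin against 9.71 and 10.84 on control, without overlap, and differed by 0.76 (SE 0.40). Cald1, caldesmon, which like calponin restrains actomyosin, differed by -0.43 (SE 0.48) in the brighter of its tested probe sets and -0.35 (SE 0.36) in the dimmer, and Tpm1, the alpha-tropomyosin, by 0.31 (SE 0.33) in its brightest and by -0.25 to 1.62 in the others tested. The 9 tested genes of this list had 4 higher and 5 lower values and a median of -0.29. With 1 array left out that median ran from -0.61 (without control replicate 1) to 0.06 (without control replicate 2). It was 0.01 with no filter on dim probe sets. Cnn2, the calponin of non-muscle and smooth muscle cells, differed by 0.95 (SE 0.31) without overlap. In the other direction, Cnn3 differed by -0.66 (SE 0.30) and the brighter Tpm4 probe set by -0.70 (SE 0.30), also without overlap. The dimmer Tpm4 probe set measured 6.35 and 6.46 on fibronectin, against 8.70 and 10.64 on control. Its log2 difference of -3.26 (SE 0.61) had a Benjamini-Hochberg adjusted p of 0.528 in limma.

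Genes that set the phosphorylation of myosin had a median of -0.03 over 11 tested members, 5 higher and 6 lower. That median was 0.07 on the deposited scale and -0.22 without control replicate 2. Ppp1r14a, an inhibitor of myosin phosphatase known as CPI-17, measured 6.99 and 7.95 on fibronectin, against 5.51 and 6.68 on control. Both fibronectin arrays exceeded both controls, and the log2 difference of 1.38 (SE 0.62) had a Benjamini-Hochberg adjusted p of 0.762 in limma. Ppp1r12a, the phosphatase's targeting subunit, differed by 0.00 (SE 0.70) in its brighter probe set and -0.17 (SE 0.41) in the other. Myl9, the regulatory light chain of smooth muscle, differed by -0.17 (SE 0.27). Myl12a differed by 0.41 (SE 0.28) without overlap. Rhoa differed by -0.29 (SE 0.37) in its brighter probe set and -0.95 (SE 0.41) in the dimmer. Rock2 differed by 0.13 (SE 0.46) in its brightest probe set and -1.37 (SE 0.49) in the other tested one. Among the tested probe sets of these genes, the groups overlapped only in the brighter one of each. A further Rock2 probe set was dim, and its groups overlapped. Rock1 was dim.

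The dense body, adhesion and filament list had 8 higher and 9 lower of 17 tested members and a median of -0.08. Vcl, vinculin of adhesion plaques, measured 8.89 and 11.40 on fibronectin against 11.63 and 12.35 on control in its brighter probe set, a log2 difference of -1.84 (SE 0.71), and differed by -0.05 (SE 0.31) in its other one. Des, the muscle intermediate filament desmin, differed by 0.24 (SE 0.25) without overlap, and Actn1, the non-muscle alpha-actinin, by 0.33 (SE 0.26) by the brighter probe set and -0.34 (SE 0.48) by the dimmer. Csrp2, a LIM protein of smooth muscle, differed by 0.54 (SE 0.33) without overlap, Csrp1 by -0.23 (SE 0.36) and Flna, filamin A, by 0.26 (SE 0.53). On the deposited scale the list's median had the opposite sign, at 0.10, and with 1 array left out it ran from -0.35 to 0.25.

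The transcriptional regulators had 4 higher and 4 lower of 8 tested members, with a median of -0.07, or -0.33 without fibronectin replicate 2. Gata6, a transcription factor of heart and smooth muscle, measured 6.82 and 6.57 on fibronectin, against 8.41 and 8.85 on control. Both fibronectin arrays were below both controls, and the log2 difference of -1.93 (SE 0.40) had a Benjamini-Hochberg adjusted p of 0.528 in limma, but its dimmer probe set differed by 0.80 (SE 0.78) with overlap. Fhl2, a LIM protein that binds serum response factor, differed by -0.53 (SE 0.30) by the brighter probe set and -0.95 (SE 0.33) by the dimmer, both without overlap. Srf, the factor that binds CArG boxes, measured 9.72 and 10.25 on fibronectin, against 9.79 and 9.65 on control, and its log2 difference was 0.26 (SE 0.31) in this probe set and 0.01 (SE 0.46) in the dimmer one. Its groups overlapped in both. The cofactor Myocd had no probe set under its own name and was not analysed here. Channels, receptors and calcium genes had 2 higher and 6 lower of 8 tested members and a median of -0.40. That median was -0.09 on the deposited scale and ran from -0.62 to -0.13 with 1 array left out. Cav1, the caveolin of smooth muscle caveolae, differed by -0.09 (SE 0.36) by the brighter probe set and -2.81 (SE 0.96) by the dimmer. In the dimmer, fibronectin replicate 2 was at the floor and fibronectin replicate 1, at 4.66, was close to it. The controls there read 6.11 and 8.73. Kcnmb1, a smooth muscle potassium channel subunit, was dim.

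**Figure D3:**
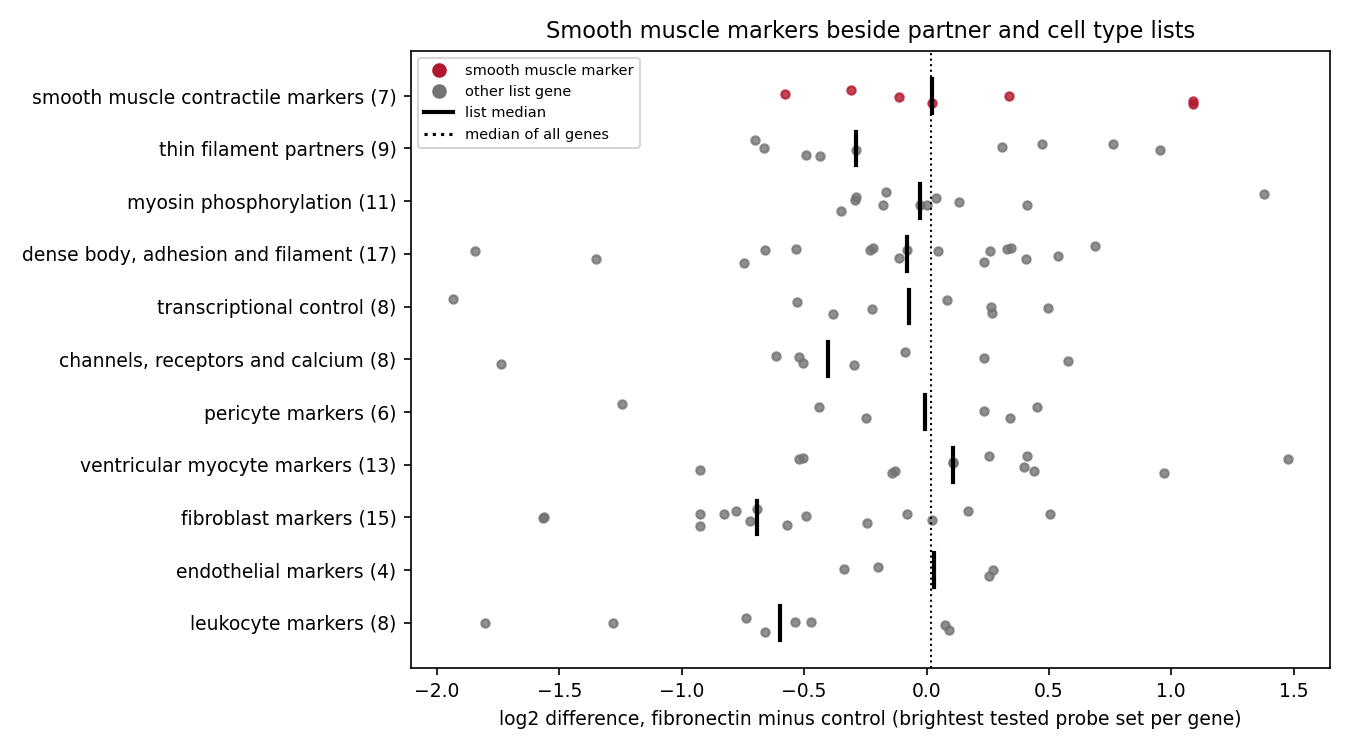
Log2 difference, fibronectin minus control (horizontal axis), for the brightest tested probe set of each gene, 1 point per gene, in the marker, partner and cell type lists, with the number of genes in brackets, a bar at each list's median and a dotted line at the median of all genes (0.02). The 7 smooth muscle markers spread from -0.58 to 1.09 around a median of 0.02.

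Other cells of the heart share some of these markers, and in bulk RNA fewer cells of a type and less RNA per cell cannot be told apart. Pericyte markers had 3 higher and 3 lower of 6 tested members, with a median of -0.01. That median was 0.07 on the deposited scale and -0.32 without control replicate 2. Pdgfrb, the pericyte and fibroblast receptor for platelet-derived growth factor, differed by -0.25 (SE 0.44), Notch3, a receptor of mural cells, differed by -1.24 (SE 0.44) without overlap, and Rgs5 was dim. Summed signal over the pericyte list was 12.03 and 11.97 on fibronectin and 11.93 and 11.80 on control, in log2. Most of that sum came from Des, the muscle desmin, which alone read 11.76 and 11.66 on fibronectin and 11.51 and 11.43 on control. Endothelial markers had 4 tested genes of 10 on the array, with a median of 0.03 and log2 summed signals of 9.49 and 9.36 on fibronectin and 9.64 and 9.20 on control. Pecam1 and Vwf, which define endothelium, were dim, with Vwf at the floor on 3 of the 4 arrays. Of the tested 4, Eng and Kdr had higher means on fibronectin, by 0.27 (SE 0.36) and 0.26 (SE 0.63). Egfl7 and Esam had lower ones, by -0.20 (SE 0.56) and -0.34 (SE 0.44) in the brightest probe sets. The dimmer tested Egfl7 probe set differed by -1.05 (SE 0.60) without overlap. The endothelial median was -0.45 without control replicate 2 and 0.25 on the deposited scale.

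Of 15 measured fibroblast markers 12 had lower values on fibronectin, beside 3449 of all 7101 genes so represented. The fibroblast markers had a median of -0.69, with log2 summed signals of 15.36 and 15.79 on fibronectin, against 15.71 and 16.15 on control. Col1a1, the main collagen of fibroblasts, differed by -0.78 (SE 0.26) in its brighter probe set and -0.45 (SE 0.32) in the other, and Dcn, decorin, by -1.57 (SE 0.41). Col1a2 differed by -0.57 (SE 0.37) in its brighter probe set and 0.03 (SE 0.27) in the other. The higher genes were S100a4, by 0.51 (SE 0.24) without overlap, Tcf21, by 0.02 (SE 0.63), and Ddr2. Ddr2 differed by 0.17 (SE 0.36) in its brighter probe set and 0.66 (SE 0.45) in the dimmer, the latter without overlap. Every one of the 15 read above the floor on all 4 arrays. On the deposited scale the list's median was only -0.05, and with 1 array left out it ran from -0.89 (without control replicate 1) to -0.32 (without fibronectin replicate 1). Ventricular myocyte markers had 8 higher and 5 lower of 13, with a median of 0.11, or 0.76 on the deposited scale and -0.13 with the mean over each gene's tested probe sets, and log2 summed signals of 16.54 and 16.56 on fibronectin, against 16.44 and 16.36 on control. Leukocyte markers had 2 higher and 6 lower of 8, with a median of -0.60, from -0.91 to -0.37 with 1 array left out, and log2 summed signals of 10.60 and 10.93 on fibronectin and 11.18 and 11.57 on control, and Ptprc, the common leukocyte antigen, was dim. The part of these cell types in the smooth muscle values was not tested.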

How the data were processed

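Total RNA of 4 samples had been measured on Affymetrix rat arrays. The deposited table gives 1 linear signal intensity per probe set and array. How the authors made it, and its scaling target, are not given in the sources used here. On each array 100% of the values below 200 times a constant lay within 0.05 of a whole multiple of it, counted in that constant. The table held 15875 rows, of which 9 Affymetrix controls were left out. Intensities were quantile normalized, because trimmed means ran from 175.6 to 247.8, floored at 23.4, which is their 20th percentile, and converted to log2. The 6347 dimmest probe sets (40%) were left out and 9519 tested in limma 3.58.1 (R 4.3.3) by lmFit and trended eBayes, two-sided, with Benjamini-Hochberg adjustment over all tested probe sets. The limma script was tested on simulated data. Differences are fibronectin minus control, and their errors are moderated standard errors.

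Names came from the platform annotation, in which 12783 probe sets had 1 symbol, 312 several and 2771 none. All members were named, together with some genes of the partner and cell type lists, of which some were added after their values were seen. The 5 partner lists cover the thin filament, myosin phosphorylation, dense bodies and adhesion, transcription, and channels and receptors. Members and lists were chosen with earlier results of these data known, and no p-value was adjusted over a list. Alternatives covered scale, filter, floor, variance model, threshold, replicate block and leaving out each array. Precision is limited by the number of arrays, 2 per group. No genome build is used by the array file. Promoter sequences are RefSeq's.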

Additional observations from a re-analysis of the deposited data

How the results depend on the processing

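In limma 0 probe sets passed under the alternatives of scale, filter, floor, variance model and a threshold of 0.10. Leaving out 1 array gave from 0 to 337, with 337 without fibronectin replicate 1, where a lone array is taken to vary as the opposite group does. With the replicate number as a block 234 of 9519 passed, 72 higher and 162 lower. Among them was the Mcam probe set 1369793_a_at, with a Benjamini-Hochberg adjusted p of 0.0441 in limma, and no other tested marker probe set. The labels do not say that equal numbers share a culture, and deviations of same-numbered arrays correlated at 0.27, and the cause was not tested. With 1 array left out the median of the markers ran from -0.32 (without control replicate 1) to 0.46 (without fibronectin replicate 1), Mylk from -0.87 to -0.29, Myh11 from -0.45 to -0.17, Tagln from -0.45 to 1.12, Smtn from -0.42 to 0.46 and Synpo2 from -0.38 to 0.16. Under the other alternatives every tested marker probe set kept its sign, but the markers' median was -0.11 with the mean over each gene's tested probe sets and -0.04 with no filter on dim probe sets. Signals near the floor, coarsest on fibronectin replicate 2, limit Lmod1, the dim Synpo2 probe sets and the lower Mcam probe set.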
